A study of Mus musculus with 4 samples.

Results

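Transcripts of 67 splicing factor and snRNP protein genes were followed through the mRNA table of a study of mutant Dis3l2 in mouse embryonic stem cells, which lists 16470 genes in all. The members were taken by symbol, as every gene whose name starts with Srsf, Hnrn, Sf3a, Sf3b, Snrp, Prpf or U2af, and each had 1 transcript in the table. The rule uses names alone, though the group was taken up with earlier results of these data known. By role they comprise 8 Sm core proteins, 12 proteins of the U1 and U2 snRNPs, 3 U2AF genes, 13 PRPF genes, 11 SR protein genes and 20 hnRNP genes.

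Dis3l2 is an exoribonuclease that degrades RNA from the 3′ end and prefers RNA tailed with uridines. A mutant form carrying a FLAG tag was transfected into feeder-free C57BL/6 stem cells at passages 25 to 30, grown on gelatin with LIF and serum, and the control cells of the same strain and culture received a mock transfection. The labels do not name the mutation, the vector or its promoter. Each condition gave 1 input library of RiboMinus-selected RNA and 1 library of RNA recovered on anti-FLAG M2 beads (IP), so that each of the 4 groups is a single library. Differences here thus compare libraries, with neither replicates nor a test behind them.

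The spliceosome removes introns from pre-mRNA. Its snRNPs carry small nuclear RNAs, most of them held in a ring of Sm proteins: the U1 snRNP marks the 5′ splice site, U2AF and the U2 snRNP mark the 3′ end of the intron and the branch point, and the tri-snRNP with its PRPF proteins then forms the catalytic centre. SR proteins mostly favour the use of nearby exons and hnRNP proteins often oppose it, and genes of both families are known for controlling their own mRNAs through alternative exons that lead to decay. The measurements here concern the mRNAs of these proteins, not the snRNAs or the proteins.

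The inputs held 307324 (mutant) and 291175 (mock) reads of this table, and the IPs 2275647 and 1860030. Lars2 alone took 33.3% to 58.6% of them. Below, 4 read counts in a row stand for inputs before IPs and mutant before mock. Dis3l2 had 7, 3, 127 and 21 reads, a ratio of 5.60 between the IPs (95% interval 3.51 to 9.36). All 10 stem cell markers were seen in both IPs, with 3472 and 2317 reads in sum for the mutant and the mock, among them Pou5f1 with 329 and 261. Of 7 fibroblast markers 3 are in the table, with 99 and 27 IP reads for mutant and mock, and of 4 endoderm markers 3, with 20 and 26; Col1a2, Afp and Gata6 were at 0 in the mutant IP and Gata4 in the mock IP. The part of these cells in the results below was not tested.

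The 67 splicing genes together held 739 reads in the mutant input and 756 in the mock input, which is 0.240% (exact 95% interval 0.223 to 0.258) and 0.260% (0.241 to 0.279) of the table. Their IP reads came to 9672 (mutant) and 8427 (mock), or 0.425% (0.417 to 0.434) and 0.453% (0.443 to 0.463). Without Lars2 in the totals the shares were 0.361% and 0.398% in the inputs and 0.885% and 1.09% in the IPs, mutant before mock. The inputs are therefore the shallow side of every comparison: the median member had 5 reads in each input, against 89 (mutant) and 73 (mock) in the IPs. In the mutant input 14 members had 0 reads, in the mock input 17 and in the mutant IP 3. A count of 0 allows up to 3 reads, worth 1.67 units of the deposited signal for the mutant input, 1.11 for its IP and 1.20 for either mock library. Values are not divided by transcript length, so levels are not compared between genes.

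The comparison of mutant IP with mock IP asks which RNAs were recovered with the tagged protein beyond the background of the beads. The mRNAs of the splicing genes were recovered about equally from both: not 1 of the 67 was at least 4-fold higher in the mutant IP, and 3 were at least 4-fold lower. Among all 14273 measured genes 10.1% were that much higher and 5.74% lower. Folds were called on log2 ratios of the deposited values with a pseudocount of 1, which understate the change of low genes. The median log2 ratio was -0.02 over the members and 0.38 over all measured genes, and the quartiles of the members were -0.48 and 0.50. At a 2-fold threshold 6 members were higher and 9 lower, against 28.8% and 15.0% of all genes.

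**Figure D1:**
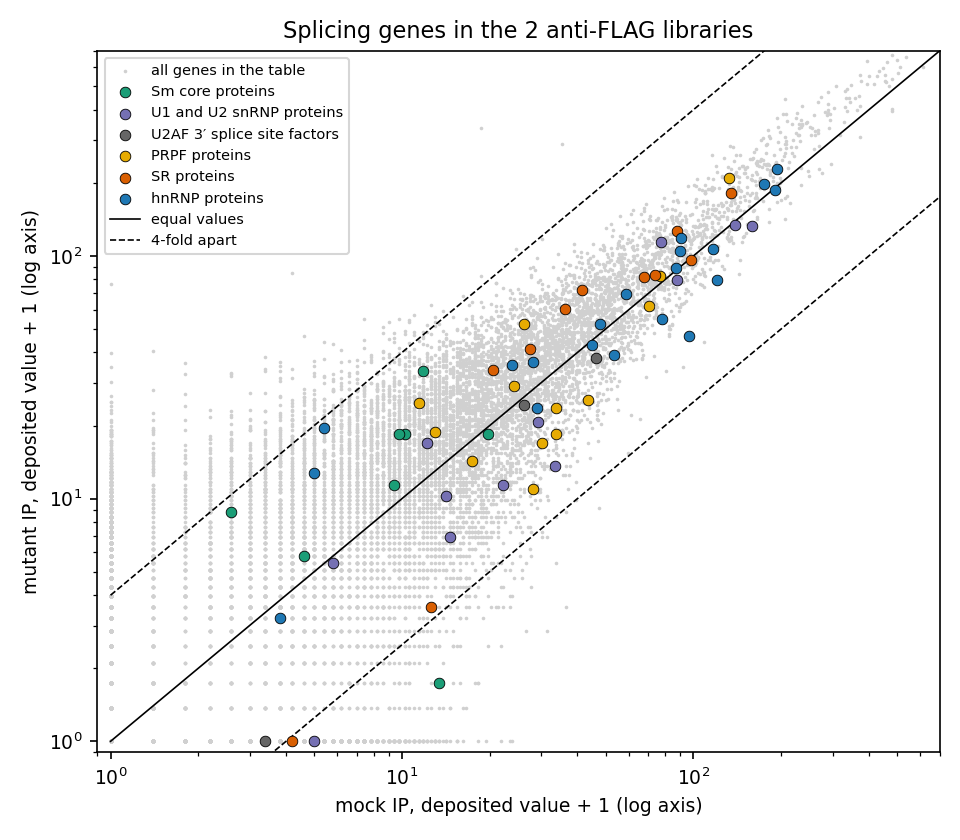
Deposited values plus 1 of the mock IP (x axis) and the mutant IP (y axis), both log axes, for all genes (grey; those past the axes, Lars2 among them, are not drawn) and the 67 splicing genes, coloured by role. The splicing genes lie within the 4-fold lines except for Snrpd1, Snrpb2 and Srsf12 in the lower part of the plot.

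Genes with few reads pass any fold more easily, so the same comparison was made among deeper genes. With at least 20 reads in each IP, 55 members were left, with a median log2 ratio of 0.11 against 0.31 for 6524 genes. Of these 55, 0 were at least 4-fold higher and 0 lower, where 0.521% and 0.0460% of the 6524 genes were. The filter also removes genes that are low in 1 IP, such as Snrpd1 with 2 mutant and 31 mock reads. It thus limits how many can pass. At this depth the 4-fold counts of the members were thus near those of all genes. At 2-fold, 3 of the 55 were higher (background 12.5%) and 3 lower (background 2.50%). With at least 100 reads in each IP, the median was 0.07 for 28 members and 0.30 for 1674 genes. The position below other genes is thus seen at each depth, and it is a difference between 2 libraries, not a tested one.

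A second reading does not depend on how the libraries are scaled. Each gene's counting interval, the exact conditional binomial 95% interval from its reads, was set against the median ratio of all genes with at least 20 reads, which was 1.25-fold. For 24 of 55 members the whole interval lay below that median, where 21.3% of all genes did, and for 6 it lay above, where 22.4% did. With at least 100 reads, 13 of 28 members lay below (background 25.5%) and 2 above (background 24.3%). The 6 above were Prpf39, Prpf6, Prpf8, Snrpn, Srsf10 and Srsf4. Counting error is all that these intervals cover, and PCR makes reads that are not separate molecules.

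The role groups did not share 1 level. Summed over its members, the hnRNP group had a mutant IP to mock IP ratio of 1.01 (95% interval 0.966 to 1.06), the U1 and U2 snRNP group 0.910 (0.846 to 0.979), the PRPF group 1.09 (1.01 to 1.17), the SR group 1.30 (1.22 to 1.39), the Sm core group 1.47 (1.22 to 1.78) and the U2AF group 0.829 (0.667 to 1.03). All genes except Lars2, summed in the same way, gave 1.31. Scaling all libraries to equal totals turned the hnRNP ratio to 0.891 and the PRPF ratio to 0.963, and left the SR ratio at 1.15 and the Sm core ratio at 1.30. Divided by the ratio of all genes except Lars2, the SR genes were at 0.991 (0.927 to 1.06) and the Sm core at 1.12 (0.930 to 1.36). Both intervals included 1. The hnRNP genes were at 0.769 (0.735 to 0.803) and the U1 and U2 genes at 0.693 (0.644 to 0.745). The U2AF genes were at 0.631 (0.508 to 0.784) and the PRPF genes at 0.830 (0.771 to 0.894). The spread between the genes of a group is not covered by these intervals. These sums weigh abundant members most, and 1 gene moved 2 of them: without Snrpn the Sm core ratio was 1.21, and without Prpf8 the PRPF ratio was 0.926.

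**Figure D2:**
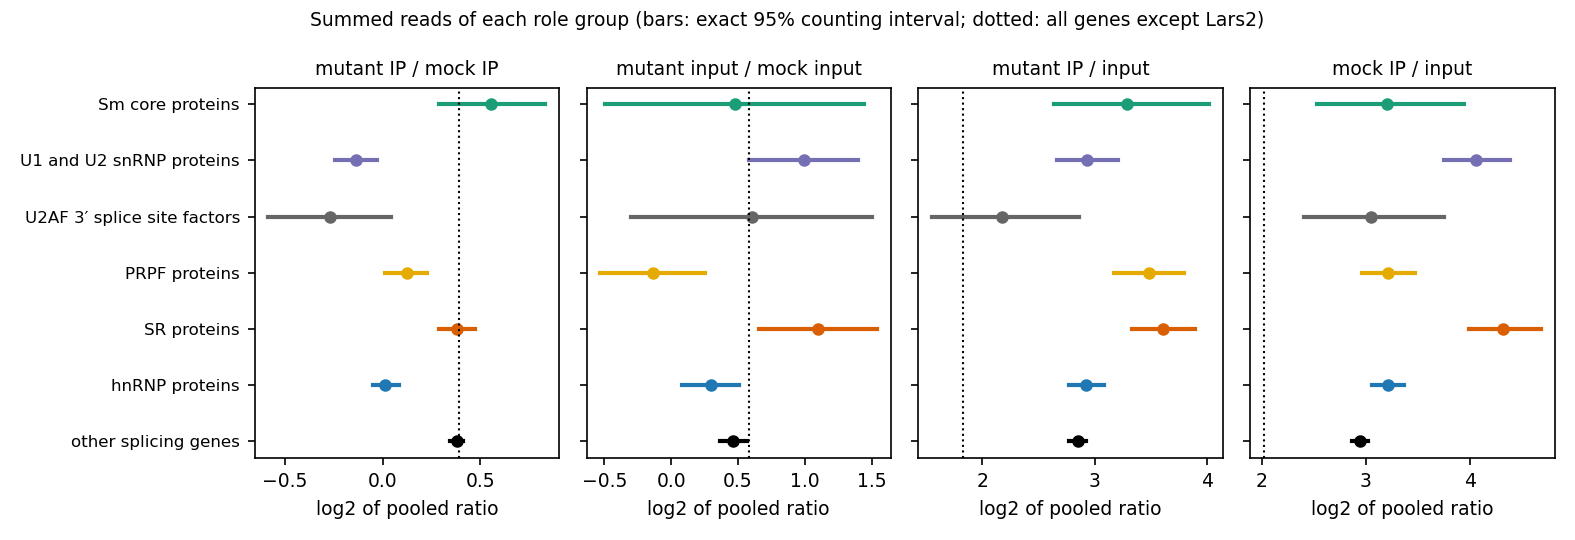
Log2 ratios of the summed reads of each role group and of the list of other splicing genes, with exact 95% counting intervals; the dotted line marks all genes except Lars2, and each panel has its own x scale. Between the IPs the SR and other splicing genes lie on the line, and the hnRNP, PRPF, U2AF, U1 and U2 genes lie to its left.

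Sm proteins form the ring that all spliceosomal snRNPs except that of U6 share, and their short mRNAs gave few reads. Snrpd1, which encodes SmD1, had 0, 0, 2 and 31 reads, a ratio of 0.0597 (0.00693 to 0.235) between the IPs. On the log2 scale with the pseudocount it stood at -2.95, the lowest of all members. Other Sm genes had higher ratios. Snrpd3 had 0, 8, 47 and 22 reads, a ratio of 1.98 (1.17 to 3.45). Snrpb had 8, 2, 47 and 23 reads, a ratio of 1.89 (1.13 to 3.26), and Snrpf 1, 3, 21 and 4, a ratio of 4.86 (1.64 to 19.5) that stayed under the threshold at 1.76 with the pseudocount. Snrpd2 had 47 reads in each IP, while Snrpe had 28 and 21 and Snrpg 13 and 9. The Sm genes therefore held both the lowest member and several of the highest, each on few reads.

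Snrpn encodes SmN, a relative of SmB, from an imprinted gene. It had 1, 2, 88 and 27 reads. The ratio of 3.02 (1.94 to 4.83) was the highest among members with at least 20 reads in both IPs. Snurf, the upstream reading frame of the same transcript, had 96 and 31 reads in the IPs, and whether the same reads were counted for both is not stated.

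Among the U1 and U2 snRNP proteins, 10 of 12 genes (83.3%) had log2 ratios below 0, where 34.9% of all genes except Lars2 did. Among these 10, the intervals of Sf3a1, Sf3a2, Sf3a3, Sf3b3 and Sf3b5 included 1. Snrpa, whose protein binds a stem-loop of U1 snRNA, had 2, 0, 34 and 81 reads, a ratio of 0.389 (0.252 to 0.587). Snrpa1, which encodes a leucine-rich repeat protein of U2, had 10, 10, 28 and 53 reads, a ratio of 0.489 (0.298 to 0.787). Snrpc, which helps U1 to engage the 5′ splice site, had 16 and 34 reads in the IPs and gave 0.436 (0.225 to 0.811). Snrpb2, a relative of Snrpa that binds U2 snRNA, was seen in the mock IP alone, with 10 reads, and was at least 3.60-fold lower with the mutant. Snrnp70, a U1 protein gene that the name rule leaves out and that was picked after its values were seen, had 169, 218, 596 and 407 reads and gave 1.36 (1.19 to 1.54), so the U1 proteins did not all lie on the mock side.

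The SF3A and SF3B complexes belong to the U2 snRNP and hold the branch point. Sf3b2 had 36, 44, 357 and 395 reads, a ratio of 0.837 (0.723 to 0.968), and Sf3b3 had 39, 22, 358 and 344, a ratio of 0.964 (0.829 to 1.12). Sf3a1, Sf3a2 and Sf3a3 gave 0.909, 0.691 and 0.701. Sf3b1, the largest subunit, which contacts the branch site, was the exception among the deep genes: with 2, 2, 305 and 191 reads it gave 1.48 (1.23 to 1.78). The intervals of Sf3b1 and Sf3b2 did not overlap, although the proteins act in 1 complex. Sf3b4 gave 1.42 (0.863 to 2.38), and Sf3b5 had 12 reads in each IP.

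U2af2 and U2af1 encode the large and small subunits of U2AF, which read the polypyrimidine tract and the 3′ splice site. U2af2 had 21, 21, 100 and 113 reads, a ratio of 0.819 (0.620 to 1.08). U2af1 had 63 reads in each IP. U2af1l4, a relative of U2af1, had reads in the mock IP alone, 6 of them, and was at least 2.16-fold lower with the mutant.

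The PRPF genes spread to both sides of the mock level. Prpf8, the large U5 protein at the catalytic centre, had 18, 29, 563 and 328 reads, a ratio of 1.59 (1.38 to 1.83). Prpf6, which bridges U5 to U4/U6 in the tri-snRNP, had 9, 1, 139 and 63 reads and gave 2.04 (1.51 to 2.80). Prpf39, a U1-associated protein, had 0, 0, 64 and 26 reads, a ratio of 2.28 (1.42 to 3.75). These 3 were the highest of the group, and Prpf6 and Prpf39 were its only members past 2-fold higher.

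On the other side lay proteins of the U4/U6 particle. Prpf4 had 5, 0, 47 and 82 reads, a ratio of 0.531 (0.363 to 0.769), and Prpf31 had 43 and 73 reads in the IPs, a ratio of 0.545 (0.365 to 0.806), whereas Prpf3, which binds Prpf4, gave 1.48 (0.920 to 2.42). Prpf38a, a factor of spliceosome activation, had 0, 0, 27 and 68 reads. At 0.368 (0.226 to 0.582) it was the lowest member with at least 20 reads in each IP. Prpf18, a factor of the second catalytic step, gave 0.577 (0.417 to 0.791), and Prpf40b, a U1-associated protein, gave 1.21 (0.851 to 1.74). Prpf19, the ubiquitin ligase of the Prp19 complex, Prpf4b, a kinase, and Prpf38b gave 0.813, 0.878 and 1.08.

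Of the 11 SR protein genes, 9 sat between 0.987 and 1.77 times the mock level. Srsf1, the best-known family member, had 3, 15, 486 and 335 reads, a ratio of 1.34 (1.17 to 1.55). Srsf4 had 22, 17, 193 and 101 reads and gave 1.77 (1.38 to 2.27), and Srsf10, which acts as a repressor when dephosphorylated, had 6, 0, 161 and 88 and gave 1.69 (1.30 to 2.22). Srsf7, Srsf3 and Srsf5 gave 1.68, 1.53 and 1.46, and Srsf11, Srsf6 and Srsf2 gave 1.22, 1.13 and 0.987. This band of 9 genes lay around the 1.25-fold median of all genes; the intervals of Srsf4 and Srsf10 lay wholly above it and that of Srsf2 wholly below.

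The remaining pair of SR genes, with 7 and 0 reads in the mutant IP, lay below. Srsf9 had 1, 0, 7 and 29 reads, a ratio of 0.223 (0.0826 to 0.521), or -1.81 with the pseudocount. Srsf12 had 7, 0, 0 and 8 reads and was at least 2.88-fold lower with the mutant.

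hnRNP genes gave the most reads of the 6 roles. Hnrnpu, which binds nuclear RNA and chromatin, had 103, 108, 502 and 473 reads, a ratio of 0.983 (0.865 to 1.12). Hnrnpa1, a repressor of exon inclusion, had 24, 36, 612 and 479 reads and gave 1.18 (1.05 to 1.34), while its relatives Hnrnpa3, Hnrnpa2b1, Hnrnpab and Hnrnpa0 gave 1.14, 1.02, 0.916 and 0.728. Hnrnpk, Hnrnpl, Hnrnph1, Hnrnph2, Hnrnpd and Hnrnpul1 gave 1.20, 1.17, 1.10, 1.31, 0.951 and 0.807, and Hnrnpul2 and Hnrnpdl 1.31 and 1.51. These 14 genes thus ranged from 0.728 to 1.51. Of the other hnRNP genes, Hnrnpf had 6 and 7 reads in the IPs.

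Hnrnpm had 9, 25, 124 and 238 reads. At 0.482 (0.385 to 0.602) it was the 1 member with at least 100 reads in each IP that was 2-fold lower, where 3 of 1674 genes were. Hnrnpc, which binds uridine tracts, had 213 and 297 reads in the IPs and gave 0.664 (0.554 to 0.794), and Hnrnpr 146 and 192 with 0.704 (0.564 to 0.878). On the higher side, Hnrnph3 had 4, 10, 50 and 11 reads, a ratio of 4.21 (2.16 to 8.97) that came to 1.85 on the log2 scale with the pseudocount, just under the threshold. Hnrnpll, a relative of Hnrnpl known from T cells, had 12, 6, 32 and 10 reads and gave 2.96 (1.42 to 6.76). Hnrnpa1 and several other members have processed copies in the genome, and the counting of reads with several alignments is not stated.

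**Figure D3:**
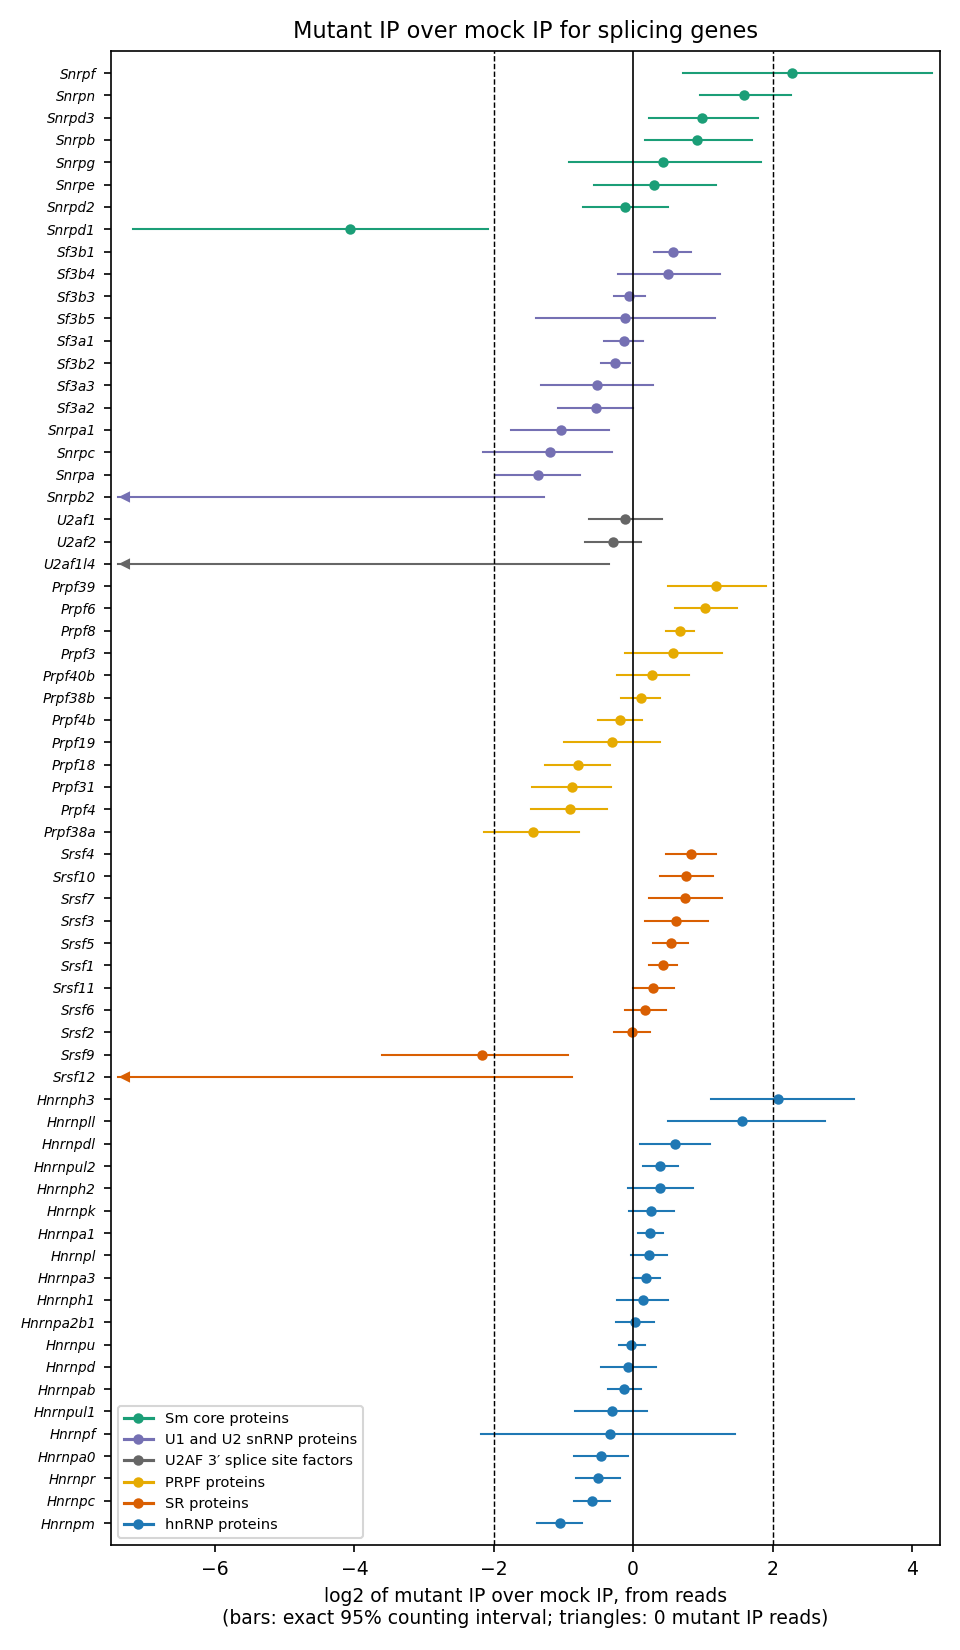
Log2 of the mutant IP over mock IP ratio of the splicing genes described, from reads without a pseudocount, with exact 95% counting intervals; dashed lines mark 4-fold, and triangles at the left edge mark genes with 0 mutant IP reads. Intervals narrow with depth. Among deep genes, Hnrnpu at 0.983 and Sf3b3 at 0.964 sit next to the line of equal values. Prpf8 at 1.59 lies to its right and Hnrnpm at 0.482 to its left.

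Other genes of splicing, which the name rule leaves out, had the median of all genes. Of 118 such genes on a list of snRNP, Prp19 complex, exon definition, regulator, exon junction and snRNP assembly genes, 114 are in the table and 113 were measured in the IPs. Their median log2 ratio was 0.38, the same as over all genes, with 5 (4.42%) at least 4-fold higher and 2 (1.77%) lower, both shares below the 10.1% and 5.74% of all genes. Summed, they gave 1.30 (1.27 to 1.33), or 0.988 times all genes except Lars2, where the members gave 1.06 (1.03 to 1.09) and 0.809. Srrm2, Srrm1 and Rbm25, large SR-related proteins and the most abundant of the list, gave 1.44 (1.36 to 1.53), 1.61 (1.45 to 1.80) and 1.51 (1.35 to 1.69).

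The genes of that list past 4-fold all had at most 5 reads in the lower library. Snupn, which carries snRNPs into the nucleus, had 58 reads with the mutant and 0 with the mock. Tia1, a regulator that binds uridine-rich sequence, had 55 and 5 reads, a ratio of 10.2 (4.11 to 32.6), and Isy1 of the catalytic spliceosome had 31 and 5. Rnpc3, a protein of the minor spliceosome, and Bud31 had 20 and 10 reads against 0. On the lower side, Rbfox2, a regulator that reads GCAUG motifs, had 0 and 27 reads, and Snrnp25, a minor spliceosome protein, had 5 and 26.

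The input libraries show whether the same mRNAs differed before the IP, and here splicing genes lay on both sides. Of 55 measured members, 20 were at least 2-fold higher in the mutant input, where 37.0% of all 9367 measured genes were, and 10 were at least 2-fold lower, where 21.8% were. Both shares of the members, 36.4% and 18.2%, were near the background, and the median was 0.43 against 0.51. With equal totals 18 of 60 members were higher and 19 lower, where 33.8% and 33.7% of all genes were. The medians of members and of all genes were then both -0.06. A difference between whole cultures can come from fewer cells of a type or from less RNA per cell, which cannot be told apart here. The SR genes Srsf2 and Srsf11 and the U2 gene Sf3a1 were among the higher ones, and Hnrnpa2b1, Hnrnpa3 and Hnrnpk among the lower.

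By role, the SR genes together had 114 input reads with the mutant against 74, a ratio of 2.14 (1.58 to 2.91), and those of the U1 and U2 genes 126 and 88, a ratio of 1.99 (1.50 to 2.64). All genes except Lars2 gave 1.50. The hnRNP genes had 362 and 410 reads, a ratio of 1.23 (1.06 to 1.42), and the PRPF genes 93 and 142, a ratio of 0.910 (0.693 to 1.19). Relative to all genes except Lars2 these were 1.43 (1.06 to 1.94) for SR, 1.33 (1.0 to 1.76) for U1 and U2, 0.818 (0.708 to 0.944) for hnRNP and 0.606 (0.462 to 0.793) for PRPF genes. The Sm core and U2AF groups, with 20 to 24 reads per input, gave 0.926 and 1.01 on that scale with intervals that included 1. Sf3b2 weighed on its group, whose ratio was 2.84 without it, and without U2af2 the U2AF group was left with 3 reads against 1.

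Among SR genes, Srsf6 had 17 input reads with the mutant against 0, at least 7.87-fold higher. Srsf11 had 24 and 8 reads, a ratio of 4.17 (1.81 to 10.7), and Srsf2, whose protein binds exonic enhancers, 26 and 15, a ratio of 2.41 (1.23 to 4.89). Srsf10 and Srsf12 had 6 and 7 reads against 0. Srsf1 and Srsf3 went the other way, with 3 against 15 reads for Srsf1, a ratio of 0.278 (0.0515 to 0.982), and 1 against 12 for Srsf3, a ratio of 0.116 (0.00271 to 0.782). Of 9 measured SR genes 5 (55.6%) were thus higher and 2 (22.2%) lower, on few reads, where 37.0% and 21.8% of all genes were. In the IPs Srsf1, Srsf2, Srsf3, Srsf6 and Srsf11 all lay between 0.987 and 1.53.

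Of 19 measured hnRNP genes 6 (31.6%) were higher and 5 (26.3%) lower, near the shares of all genes. Hnrnpa0 had 63 and 30 reads, a ratio of 2.92 (1.86 to 4.67), Hnrnpul2 40 and 23, a ratio of 2.42 (1.41 to 4.23), Hnrnpl 25 and 11 with 3.16 (1.50 to 7.11) and Hnrnpd 24 and 9 with 3.70 (1.66 to 9.05). Hnrnpll and Hnrnpr were also past 2-fold higher, on 12 against 6 and 6 against 0 reads. The opposite was seen for Hnrnpa2b1 with 4 and 32 reads, a ratio of 0.174 (0.0446 to 0.490), Hnrnpa3 with 7 and 36, a ratio of 0.270 (0.101 to 0.615), Hnrnpab with 6 and 25, a ratio of 0.333 (0.112 to 0.832), and Hnrnpk with 0 and 14, at least 3.36-fold lower. Hnrnpf had 0 and 3 reads. Hnrnpa1, close in sequence to Hnrnpa2b1 and Hnrnpa3, was at 0.926 (0.528 to 1.60).

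**Figure D4:**
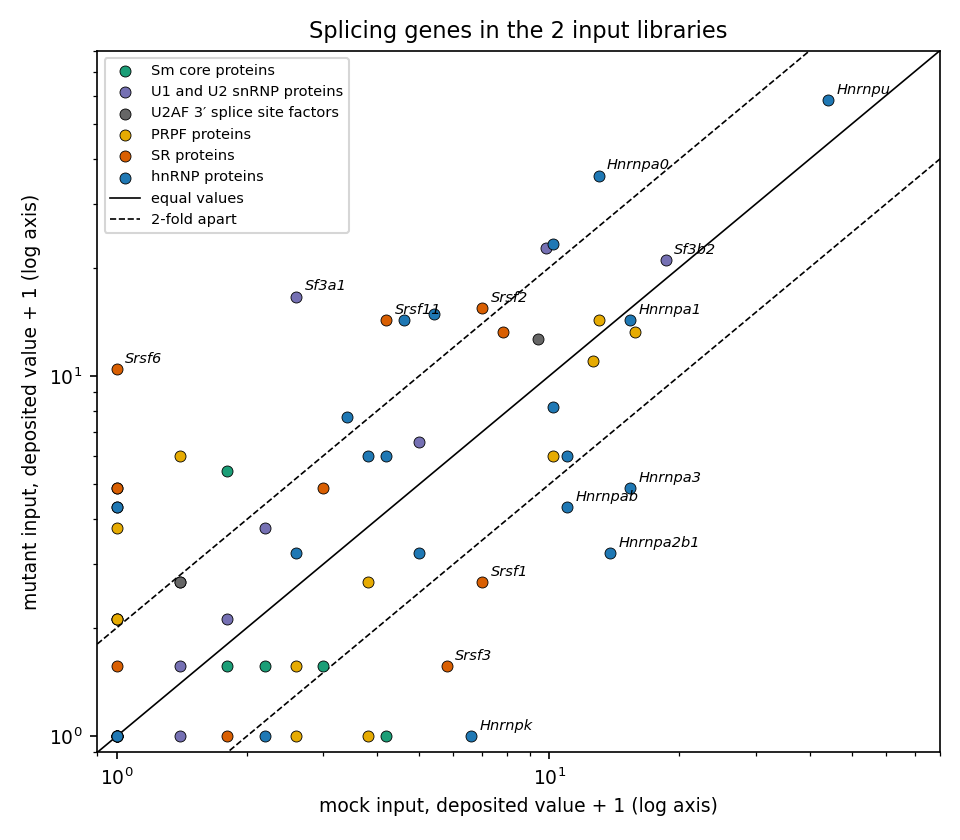
Deposited values plus 1 of the mock input (x axis) and the mutant input (y axis), both log axes, for the 67 splicing genes, with solid and dashed lines at equal and 2-fold values. Sf3a1, Srsf6 and Hnrnpa0 lie above the upper dashed line and Hnrnpa2b1, Hnrnpa3 and Hnrnpk below the lower one; points at 1 on an axis had 0 reads there.

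Sf3a1 had 28 and 4 input reads, a ratio of 9.72 (3.40 to 38.1), and Sf3b3 39 and 22, a ratio of 2.46 (1.42 to 4.36), while Sf3b2 gave 1.14 (0.711 to 1.81). The other members named as past 2-fold rested on at most 9 reads in the higher library. Higher were Prpf6 with 9 and 1 reads, Snrpb with 8 and 2, Snrpg with 7 and 0, Prpf4 with 5 and 0, and Snrpe and Snrpa with 2 and 0 each, under the limit that a count of 0 allows. Lower were Snrpd3 with 0 and 8, Prpf40b with 0 and 7 and Prpf3 with 0 and 4. At this depth a ratio of 2 for most members was not detectable.

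Within each condition, the IP was set against its own input to see what the beads retained. In the mutant, 52 of 64 measured members were at least 4-fold higher in the IP and 1 was lower, where 61.1% and 2.32% of all genes were. In the mock, 61 of 67 were higher and 0 lower, where 60.6% and 1.92% of all genes were. The medians were 2.81 against 2.44 for all genes in the mutant and 3.29 against 2.32 in the mock. Among genes with at least 20 reads in both libraries of a ratio, 11 of 15 members in the mutant and 16 of 16 in the mock were past 4-fold, against 39.7% and 44.0% of 1267 and 1243 genes. The labels name RiboMinus for the inputs and not for the IPs, so these ratios also compare preparations. These counts depend on the scale. With equal totals 20 of 64 members were higher and 2 lower for the mutant, where 29.5% of 13648 genes were higher and 1429 lower. For the mock, 18 of 67 were higher and 1 lower, where 27.4% and 12.6% of all genes were. The shares of members that were higher were then near the background in both. With each library centred on its median, 8 were higher and 4 lower for the mutant (5.11% and 16.6% of all genes). For the mock these were 11 and 2 (5.35% and 13.7%). The members' median in the mutant, above that of all genes here, was below it with equal totals (0.96 against 1.14).

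Among the most abundant genes of each role, Srsf1 had the highest IP over input ratio, at 108 (36.7 to 526) for the mutant, on 3 input reads, and 22.3 (13.3 to 40.4) for the mock. Prpf8 was at 20.9 (13.1 to 35.4) and 11.3 (7.73 to 17.2), Hnrnpa1 at 17.0 (11.3 to 26.7) and 13.3 (9.48 to 19.2), and Sf3b2 at 6.61 and 8.98. Snrpn gave 58.7 and 13.5 on 1 and 2 input reads. Hnrnpu, the member with the most input reads, had lower ratios, 3.25 (2.62 to 4.06) and 4.38 (3.55 to 5.45), and U2af2 at 3.17 and 5.38.

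Members with at least 20 reads on both sides spread widely. In the mutant, Hnrnpa0 had a ratio of 1.09 (0.789 to 1.52), with Hnrnpd at 3.14 and Prpf4b at 4.58, while Hnrnpl, Prpf38b and Srsf2 were at 7.49, 6.70 and 6.62. In the mock, Hnrnpa0 was at 4.37, Prpf18 at 4.61 and Prpf38b at 5.14, whereas Sf3b3, Hnrnpc, Hnrnpa3 and Hnrnpab were at 15.6, 12.9, 12.0 and 11.6. Hnrnpa0 was thus at the low end in both. It is the member second to Hnrnpu in mutant input reads, which are the denominator of the mutant ratio. Srsf12 was the 1 member lower in the mutant IP, by at least 3.50-fold.

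The specific enrichment divides IP over input in the mutant by the same ratio in the mock, and so joins all 4 libraries. Of the 67 members 7 were at least 4-fold higher, where 13.8% of 15060 genes were, and 9 at least 4-fold lower, where 10.6% were. Equal totals gave 13 and 11, where 18.2% and 14.7% of all genes passed. Centring each library on its median gave 5 and 11, where 11.2% and 13.2% did. The median was -0.42 against 0.13. It uses the IP and input libraries already described. Each of the 7 higher members had more reads in the mock input than in the mutant one, but Hnrnph3 and Snrpf owed most of their value to the IPs, and the lower members Snrpd1 and Snrpb2, with 0 reads in both inputs, owed all of it.

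Those 7 were Hnrnpk and Snrpd3 at 2.98 each on the log2 scale, Srsf3 and Hnrnph3 at 2.49, Snrpf at 2.25, Prpf40b at 2.19 and Hnrnpa2b1 at 2.13. The exact conditional interval over the 4 read counts ran from 2.03 to 23.2 for Hnrnpa2b1 (ratio 5.88) and from 1.71 to 37.8 for Hnrnph3 (ratio 7.58). The 9 lower ones were Srsf12 at -4.36, Srsf6 at -3.21, Snrpd1 at -2.95, Sf3a1 at -2.81, Prpf4 at -2.79, Hnrnpr at -2.61, Srsf9 at -2.45, Snrpa at -2.37 and Snrpb2 at -2.32. Sf3a1, with a ratio of 0.0935 (0.0235 to 0.275), was the 1 of these with reads in all 4 libraries.

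With at least 20 reads in each library 9 members were left, and 0 passed 4-fold in either direction, where 4 of 859 genes were higher and 15 lower. Hnrnpa0 was the lowest of them at a ratio of 0.250 (0.145 to 0.425), followed by Sf3b3 at 0.391 (0.216 to 0.693), Hnrnpul2 at 0.542 (0.301 to 0.958) and U2af2 at 0.590 (0.288 to 1.21). Hnrnpa1 and Prpf38b were the highest at 1.28 (0.730 to 2.27) and 1.30 (0.720 to 2.40), with Hnrnpu at 0.742 (0.545 to 1.01), Sf3b2 at 0.736 and Prpf4b at 0.790 between. Summed, all genes except Lars2 gave 0.876 on this scale. By role, the U1 and U2 genes gave 0.458 (0.341 to 0.612) and the U2AF genes 0.547 (0.281 to 1.06). The SR genes gave 0.608 (0.444 to 0.829) and the hnRNP genes 0.823 (0.708 to 0.958). PRPF and Sm core genes gave 1.20 (0.907 to 1.59) and 1.06 (0.526 to 2.14). The intervals of the U2AF, hnRNP and Sm core groups held the value of all genes.

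Promoters were also searched for 5 short words, which the name rule did not use and the RNA libraries did not measure. RefSeq promoter windows (GRCm38.p6) matched 58 of the 67 members and 11939 genes of the table, and the 250 bases before the start were searched on both strands. CGGAAGT, the core of sites for ETS factors, was in 15 member windows (25.9%) and in 8.46% of all. The share was 48.3% against 36.1% for CCAAT, 65.5% against 54.9% for the GC box GGGCGG, 8.62% against 7.22% for TATAAA and 8.62% against 8.02% for the E-box CACGTG. None of these 5 words contains another, they were picked after shares of more words had been seen, and a match is not a binding site. The last 120 bases before the start are shown for a Sm, an SR, a U2 and a PRPF gene described above, with the ETS letters of either strand in capitals: Snrpd2 at chr7:19149718-19149837 (plus strand), Srsf5 at chr12:80945379-80945498 (plus), Sf3b2 at chr19:5295458-5295577 (minus) and Prpf6 at chr2:181601199-181601318 (plus). Snrpd2 and Srsf5 hold the word at 2 places each.
Snrpd2: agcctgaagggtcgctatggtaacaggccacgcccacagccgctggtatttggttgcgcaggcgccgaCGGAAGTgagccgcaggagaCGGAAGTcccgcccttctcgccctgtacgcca
Srsf5: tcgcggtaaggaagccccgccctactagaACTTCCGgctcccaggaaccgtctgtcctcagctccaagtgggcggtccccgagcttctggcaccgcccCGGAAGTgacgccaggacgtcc
Sf3b2: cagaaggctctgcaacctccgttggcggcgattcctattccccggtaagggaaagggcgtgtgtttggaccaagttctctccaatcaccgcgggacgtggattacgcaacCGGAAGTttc
Prpf6: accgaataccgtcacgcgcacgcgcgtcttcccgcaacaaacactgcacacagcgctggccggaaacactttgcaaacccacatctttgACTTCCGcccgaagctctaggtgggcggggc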

How the data were processed

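Per the submitters' processing notes, Bowtie and the mm9 build were used; how reads were counted, and whether by strand, is not stated there. Each value of the mRNA table is a signal that the authors deposited per transcript and library. It equals whole reads, within 0.02 reads for 100% of values, divided by a factor of 1.8 for the mutant input, 2.7 for its IP and 2.5 for either mock library, and not by length. The labels do not explain these factors, on which every ratio rests; other scalings are in the closing section. With 1 library per group no count test could be run. For 16470 genes, log2 ratios used a pseudocount of 1, where any library used had a value of at least 1, and called at 4-fold (2-fold between inputs). Ratios with 95% intervals are exact and conditional on the recovered reads (scipy 1.17.1, Python 3.11.15); the code was checked on reads drawn with known ratios. Where 1 library had 0 reads, folds are set against 3 reads and take the other library's count as exact, so they are not 95% limits. The 26 date-like names were restored through RefSeq. Named genes were Dis3l2, members past the threshold, the 5 highest and 5 lowest with at least 20 reads per library, and the most abundant of each role; IP over input names no member that only passed the threshold. Members, lists and rules were chosen with earlier results of these data known. The values of 1 member are not reported here by name; it stays in the counts and sums. The noncoding table has no members and was not used.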

Additional observations from a re-analysis of the deposited data

Results flagged for a closer look

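Srsf12 was singled out because its IP was below its input in the mutant (7 reads in the input, 0 in the IP) and above it in the mock (0 and 8 reads), a specific enrichment of -4.36 on the log2 scale. With 1 library per group the difference was not tested.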

How the results depend on the processing

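Counts of members past a fold depend on the settings because most rest on few reads. Percentages in this paragraph are shares of all genes at the same setting. Between the IPs, 0 members were at least 4-fold higher under every alternative run. The 3 lower ones became 0 with a pseudocount of 5 and 1 with a minimum value of 5. They became 5 after centring each library on its median, and 1 with equal totals, with and without Lars2. With at least 20 reads in both IPs or, chosen after the data were seen, 100 reads, they became 0. In that order the shares higher were 0.631%, 8.91%, 5.91%, 4.94%, 4.49%, 0.521% and 0.119%. The shares lower were 0.0701%, 4.06%, 8.44%, 3.29%, 4.15%, 0.0460% and 0%. For the specific enrichment, 7 higher and 9 lower became 0 and 0 with a pseudocount of 5 (1.37% and 0.558%). With at least 20 reads they were also 0 and 0, of 9 members (0.466% and 1.75%). The higher ones became 13 and 11 with equal totals with and without Lars2 (18.2% and 15.2%). For mutant IP over input, 52 higher became 8 (centred, 5.11%) and 11 of 15 with at least 20 reads (39.7%). They became 20 and 25 with equal totals with and without Lars2 (29.5% and 32.7%). The 1 lower became 4 (centred, 16.6%) and 2 (equal totals, 1429 of 13648 genes). It became 0 with a pseudocount of 5 (0.631%), a minimum value of 5 (2.07%) and at least 20 reads (1.89%). For mock IP over input, 61 higher became 37 (pseudocount 5, 23.7%) and 11 (centred, 5.35%). They became 18 and 25 with equal totals with and without Lars2 (27.4% and 32.8%), and 16 of 16 with at least 20 reads (44.0%). The 0 lower became 2 (centred, 13.7%) and 1 (equal totals, 12.6%). Between the inputs, 20 higher and 10 lower became 6 and 3 (pseudocount 5), 11 and 5 (minimum value 5) and 3 and 0 (20 reads), with 19 lower under equal totals with or without Lars2.

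The median of the members stayed below that of all genes between the IPs and for the specific enrichment under each alternative, and above it for mock IP over input. Centring moved the median of all genes between the IPs to 0.01, and equal totals to 0.20, or -0.06 between the inputs. Called IP over input values turned negative for 19 of 52 members in the mutant and 16 of 61 in the mock after centring, and for 2 and 10 with equal totals. After centring these were, among named genes, Prpf38b (-0.12), Prpf4b (-0.65), Srsf2 (-0.12) and Sf3b2 (-0.10) in the mutant, and Prpf18 (-0.46), Prpf38b (-0.27), U2af2 (-0.25), Hnrnpa0 (-0.51) and Hnrnpu (-0.44) in the mock. With equal totals Prpf4b (-0.10) turned in the mutant, and Prpf18 (-0.46), Prpf38b (-0.31), U2af2 (-0.24), Hnrnpa0 (-0.54) and Hnrnpu (-0.54) in the mock. The cause was not tested. Summing over transcripts was not run, since each member has 1 row. No paired analysis was possible because each group is 1 library.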
